A study of Mus musculus with 6 samples.

Results

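The E2F transcription factors and the retinoblastoma (RB) family were followed in a mouse pre-B cell line with raised or sequestered miR-26. The members were E2f1, E2f2, E2f3, E2f4, E2f5, E2f7, E2f8, Rb1, Rbl1 and Rbl2, and every array probe carrying 1 of these 10 gene names was reported separately. These are 10 of the 24105 gene names on the array, read by 13 of its 55681 probes, with 2 probes each for E2f3, E2f7 and Rbl1 and 1 for each of the others. All 13 were above background on 6 of 6 arrays and passed the filter on low signals.

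Each array measured RNA of the pre-B cell line 1676 with the genotype SLP-65-/- LAT-/-, grown in IL-7 and selected with puromycin after retroviral transduction. There were 2 arrays of cells with a control vector, 2 of cells overexpressing miR-26a from a hsa-miR-26a-2 construct and 2 of cells with the miR-26 sponge, a transcript that sequesters both family members. The 2 arrays of a group came from 2 experiments with separately made clones of this 1 line, so the spread between them mixes clone, experiment and position on the slide. Signals are given as quantile-normalized log2 intensity, and a change is a difference of log2 values.

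E2F proteins bind a short GC-rich motif in promoters of genes for DNA replication and cell division. E2F1, E2F2 and E2F3 are classed as activators, E2F4 and E2F5 act mainly as repressors with the RB family, and E2F7 and E2F8 are atypical repressors that do not bind RB proteins. Rb1, Rbl1 (p107) and Rbl2 (p130) encode the pocket proteins that hold E2F in check until cyclin-dependent kinases phosphorylate them. Pre-B cells divide in response to IL-7 and leave the cell cycle when they mature further.

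A microRNA pairs with transcripts mainly through its seed, bases 2 to 8 from the 5′ end. The mature sequences are shown because the construct supplies miR-26a and the sponge binds both family members. The seed is in capitals and is the same in miR-26a and miR-26b (RefSeq, GRCm38.p6, genes Mir26a-1, Mir26a-2 and Mir26b).
mmu-miR-26a-5p: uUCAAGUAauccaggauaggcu
mmu-miR-26b-5p: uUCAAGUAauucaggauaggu
The reverse complement of the seed, TACTTGA, was present in 0 of the 13 member probes and in 0.431% of all probes with a sequence. This concerns the probes of 60 bases only and not the transcripts they belong to.

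RefSeq promoter windows of 300 bases, from 250 before to 50 after the annotated start, were at hand for 7 of the 10 members in 9 windows. The E2F motif, spelled TTTGGCGC, TTTCCCGC, TTTGCCGC or TTTCGCGC and searched on both strands, was found in 4 of these 9 windows, those of E2f7 and Rbl1 and 1 of the 2 windows each for E2f2 and E2f3. Of all 32851 windows, 2.26% held it. The 30 bases around the match are shown for E2f2, E2f3 and Rbl1, with the match in capitals, at chr4:136172294-136172323 (plus strand), chr13:29986056-29986085 (minus strand) and chr2:157204534-157204563 (minus strand) of GRCm38.p6.
E2f2: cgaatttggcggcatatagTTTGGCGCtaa
E2f3: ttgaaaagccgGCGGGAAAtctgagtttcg
Rbl1: aagaaggcgatTTTCGCGCgctttgtcgcg
In E2f3 the match is on the opposite strand and so reads as the reverse complement of TTTCCCGC, as it does in E2f7. As given below, E2f2 and 1 of the 2 probes of E2f7 fell with miR-26a. The E2f2 match lies after the start. For E2f7, whose match lies before it, the 250 bases before the start are shown, chr10:110745189-110745438 on the plus strand of the same build.
E2f7: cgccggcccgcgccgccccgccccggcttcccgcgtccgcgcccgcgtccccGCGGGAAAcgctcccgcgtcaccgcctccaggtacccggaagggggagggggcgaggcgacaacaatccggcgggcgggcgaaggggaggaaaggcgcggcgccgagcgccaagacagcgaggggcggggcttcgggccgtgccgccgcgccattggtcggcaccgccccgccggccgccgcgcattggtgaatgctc
The windows of E2f1, E2f8 and Rbl2 and the other windows of E2f2 and E2f3 held none of these letters. The letters of the E2f1 window look like coding sequence, so it may lie downstream of the promoter, and nothing is read from it.

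The arrays had 59305 spots each, of which 28823 to 29800 were well above background and 0 were saturated. All 8 pre-B cell markers were above background on every array, and none of the 4 erythroid or 3 stromal markers passed the signal filter. Of 6 myeloid markers Itgam, Csf1r and Elane passed it, and of 5 T cell markers Cd3e and Cd4 did. The summed signal of the T cell list was 1385 to 1409 in control, 1297 to 1417 in miR-26a and 1068 to 1202 in sponge arrays, and the part of these transcripts in the results below was not tested. Probes of Blnk, the gene for SLP-65, and of Lat gave log2 signals of 14.90 to 15.61 and of 10.10 to 10.30 despite the genotype. The Blnk probe changed by -0.49 between miR-26a and control (limma adjusted p = 0.0275) and by -0.61 between miR-26a and sponge (adjusted p = 0.0123). The reason was not tested, and the Lat probe did not pass in any comparison. Whether these probes lie in the deleted parts is not given in the sources used here, so they check nothing.

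With miR-26a, 3 of the 13 member probes were called, in both directions, while no member passed the test with the sponge. With miR-26a against control, E2f2 and 1 probe of E2f7 fell and E2f1 rose, each at an adjusted p under 0.05 by limma, Benjamini-Hochberg adjusted over all 20168 probes tested. The 2 lower probes of 13 compare with 5.14% of all probes tested and the 1 higher probe with 4.5%. At an unadjusted p under 0.05, 3 member probes were lower and 2 higher, against 13% and 14.3% of all probes. The median change of the 13 probes was 0.07, beside 0.01 for all probes tested. With so few members these shares are a description.

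**Figure D1:**
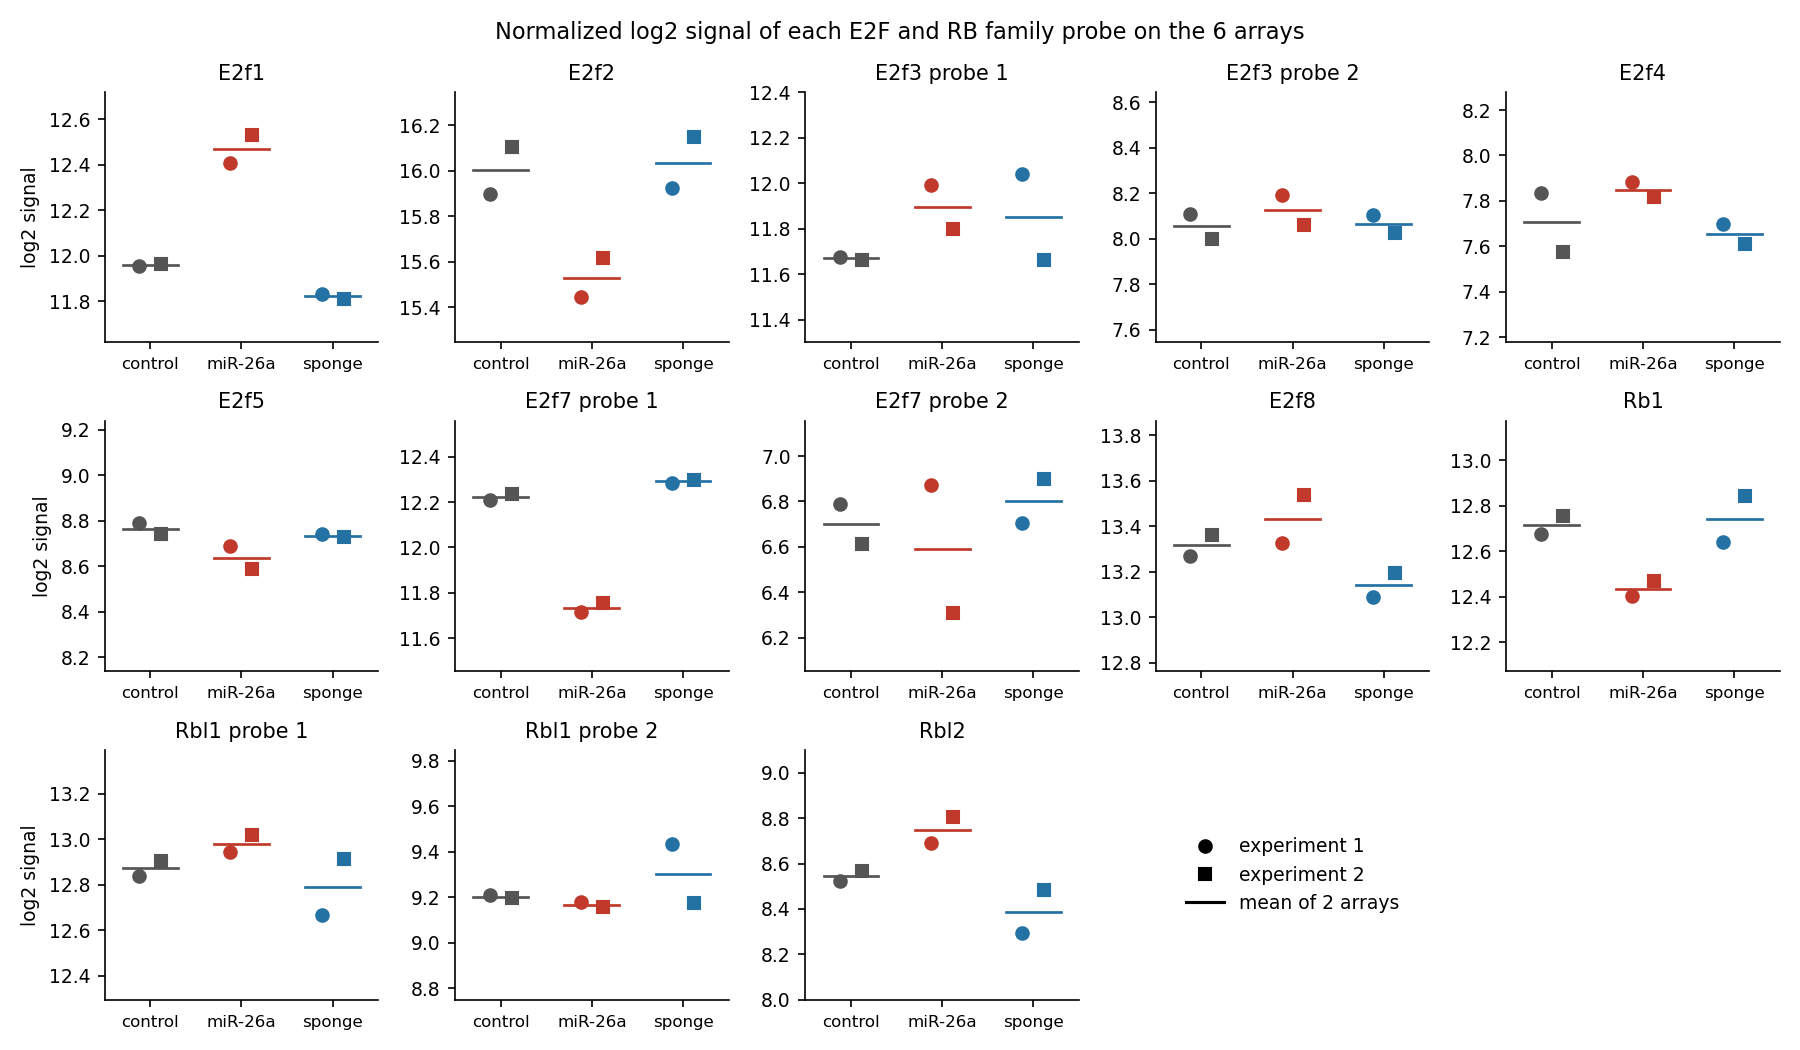
Normalized log2 signal (vertical axis, the same span in each panel) of the 13 probes on the 6 arrays, with circles for experiment 1, squares for experiment 2 and lines for group means. Both miR-26a arrays lie above the other 4 for E2f1, Rbl1 probe 1 and Rbl2, and below them for E2f2, E2f5, E2f7 probe 1 and Rb1. How many of all probes tested separate in this way was not counted.

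E2f1, an activator E2F, was the member that rose. Its probe (mm9 chr2:154385798-154385857) read 11.96 and 11.96 in control, 12.41 and 12.53 in miR-26a and 11.83 and 11.81 in sponge arrays. Both miR-26a arrays were above both control arrays, and both sponge arrays were below them. The change with miR-26a was 0.51 (SE 0.0726, 95% interval 0.33 to 0.69, limma adjusted p = 0.0167), a 1.42-fold higher signal, and it was 0.45 in experiment 1 and 0.57 in experiment 2. The change with the sponge was -0.14 (95% interval -0.32 to 0.04, adjusted p = 0.404) and did not pass. miR-26a and sponge, compared directly, differed by 0.65 (SE 0.0726, adjusted p = 0.00689). Since both comparisons with control use the same 2 control arrays, this direct comparison is the test of whether the constructs differ in their effect.

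E2f2, a second activator with a prominent role in lymphocytes, moved the other way. Its probe (mm9 chr4:135750562-135750621) read 15.90 and 16.10 in control, 15.44 and 15.61 in miR-26a and 15.92 and 16.15 in sponge arrays. Experiment 2 was higher than experiment 1 in each group, and within each experiment the miR-26a array was the lowest. The signal fell by 27.9% with miR-26a, a change of -0.47 (SE 0.0660, 95% interval -0.64 to -0.31, limma adjusted p = 0.0159). Within the experiments the changes were -0.45 and -0.49. The sponge differed from control by 0.03 (95% interval -0.13 to 0.20, adjusted p = 0.823), and miR-26a from sponge by -0.51 (adjusted p = 0.0103).

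E2f3, the third activator, has 2 probes of the same transcript. Probe 1 (mm9 chr13:29998480-29998539) read 11.68 and 11.66 in control, 11.99 and 11.80 in miR-26a and 12.04 and 11.66 in sponge arrays. The sponge arrays were far apart, with the array of experiment 1 above all others and that of experiment 2 level with control. The change was 0.23 with miR-26a (95% interval -0.03 to 0.48, limma adjusted p = 0.225) and 0.18 with the sponge (95% interval -0.07 to 0.43, adjusted p = 0.423). Probe 2, whose design coordinates (mm9 chr13:30005369-30008755) span more than its 60 bases, gave linear signals of 256 to 292 on the 6 arrays. Its log2 change was 0.07 with miR-26a (95% interval -0.09 to 0.24) and 0.01 with the sponge (95% interval -0.15 to 0.17). Neither E2f3 probe passed in any comparison.

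E2f4 and E2f5, which reach the nucleus largely in complex with pocket proteins, passed in no comparison. The E2f4 probe read 7.83 and 7.58 in control, 7.88 and 7.82 in miR-26a and 7.70 and 7.61 in sponge arrays. The 2 control arrays were farther apart than those of either construct. Its change was 0.14 with miR-26a (95% interval -0.05 to 0.34), -0.05 with the sponge (95% interval -0.25 to 0.15) and 0.19 between miR-26a and sponge (95% interval -0.0017 to 0.39, limma adjusted p = 0.147). The E2f5 probe read 8.79 and 8.74 in control, 8.69 and 8.59 in miR-26a and 8.74 and 8.73 in sponge arrays. Both miR-26a arrays were the lowest, by a small margin, and the change of -0.13 had a 95% interval of -0.30 to 0.04 (adjusted p = 0.295). With the sponge it was -0.03 (95% interval -0.20 to 0.14).

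E2f7, an atypical repressor of the activator E2Fs, had the lowest adjusted p of the members in the miR-26a comparison. Probe 1 (mm9 chr10:110224331-110224390) read 12.21 and 12.24 in control, 11.71 and 11.76 in miR-26a and 12.28 and 12.30 in sponge arrays. The arrays of each group lay close together, and the miR-26a pair stood apart below the rest. The change was -0.49 (SE 0.0652, 95% interval -0.65 to -0.33, limma adjusted p = 0.0146), and 3.58% of all probes tested had a lower one. It was -0.50 in experiment 1 and -0.48 in experiment 2. The sponge differed from control by 0.07 (95% interval -0.10 to 0.23, adjusted p = 0.634), and miR-26a from sponge by -0.56 (SE 0.0652, adjusted p = 0.00790).

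The other E2f7 probe did not show this fall. Probe 2 (mm9 chr10:110219255-110219314) is designed to the same transcript and was dim, with linear signals of 79.3 to 119 on the 6 arrays. It read 6.79 and 6.61 in control, 6.87 and 6.31 in miR-26a and 6.70 and 6.90 in sponge arrays. The miR-26a arrays enclosed the control arrays, with the experiments pointing in opposite directions (0.08 and -0.30). Its change of -0.11 had a standard error of 0.173 and a 95% interval of -0.54 to 0.32 (limma adjusted p = 0.743), which also holds the change of probe 1. The fall of E2f7 rests on 1 of its 2 probes.

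E2f8, the other atypical repressor, did not pass against control with either construct but differed between them. Its probe (mm9 chr7:56121860-56121919) read 13.27 and 13.36 in control, 13.32 and 13.53 in miR-26a and 13.09 and 13.19 in sponge arrays. The miR-26a arrays overlapped control, and both sponge arrays lay below it. Against control the change was 0.11 with miR-26a (95% interval -0.06 to 0.29, limma adjusted p = 0.369) and -0.17 with the sponge (95% interval -0.35 to 0.0012, adjusted p = 0.313). miR-26a was above sponge by 0.29 (SE 0.0706, adjusted p = 0.0473).

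Rb1, the retinoblastoma gene itself, was measured by 10 spots per array. Its probe (mm9 chr14:73595408-73595467) read 12.68 and 12.76 in control, 12.40 and 12.47 in miR-26a and 12.64 and 12.84 in sponge arrays. Both miR-26a arrays were below the other 4, and the control arrays lay within the span of the sponge arrays. The change with miR-26a was -0.28 (SE 0.0724, 95% interval -0.46 to -0.10), a signal 17.7% lower, with -0.27 and -0.29 in the experiments. It passed at an unadjusted p of 0.00952 but not after adjustment over all probes (limma adjusted p = 0.0708). The sponge differed from control by 0.03 (95% interval -0.16 to 0.21), and miR-26a from sponge by -0.31 (adjusted p = 0.0436).

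Rbl1, which encodes p107, was read by 2 probes of different transcript variants. Probe 1 (mm9 chr2:156972143-156972202) read 12.84 and 12.91 in control, 12.94 and 13.02 in miR-26a and 12.67 and 12.91 in sponge arrays. The changes of 0.11 with miR-26a (95% interval -0.09 to 0.30) and -0.08 with the sponge (95% interval -0.28 to 0.11) did not pass. Probe 2 (mm9 chr2:157000761-157000820) read 9.21 and 9.19 in control, 9.18 and 9.16 in miR-26a and 9.44 and 9.17 in sponge arrays. Of these the sponge array of experiment 1 alone stood apart, and the changes were -0.03 with miR-26a (95% interval -0.26 to 0.19) and 0.10 with the sponge (95% interval -0.12 to 0.32).

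Rbl2, which encodes p130, the pocket protein of resting cells, had values on opposite sides of control with the 2 constructs. Its probe (mm9 chr8:93647120-93647179) read 8.52 and 8.57 in control, 8.69 and 8.80 in miR-26a and 8.29 and 8.48 in sponge arrays. The 3 groups did not overlap, with miR-26a above control and sponge below it. Against control neither value passed, with 0.20 for miR-26a (95% interval 0.02 to 0.38, unadjusted p = 0.0330, limma adjusted p = 0.145) and -0.16 for the sponge (95% interval -0.34 to 0.02, adjusted p = 0.354). Between miR-26a and sponge the difference was 0.36 (SE 0.0719, adjusted p = 0.0288).

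**Figure D2:**
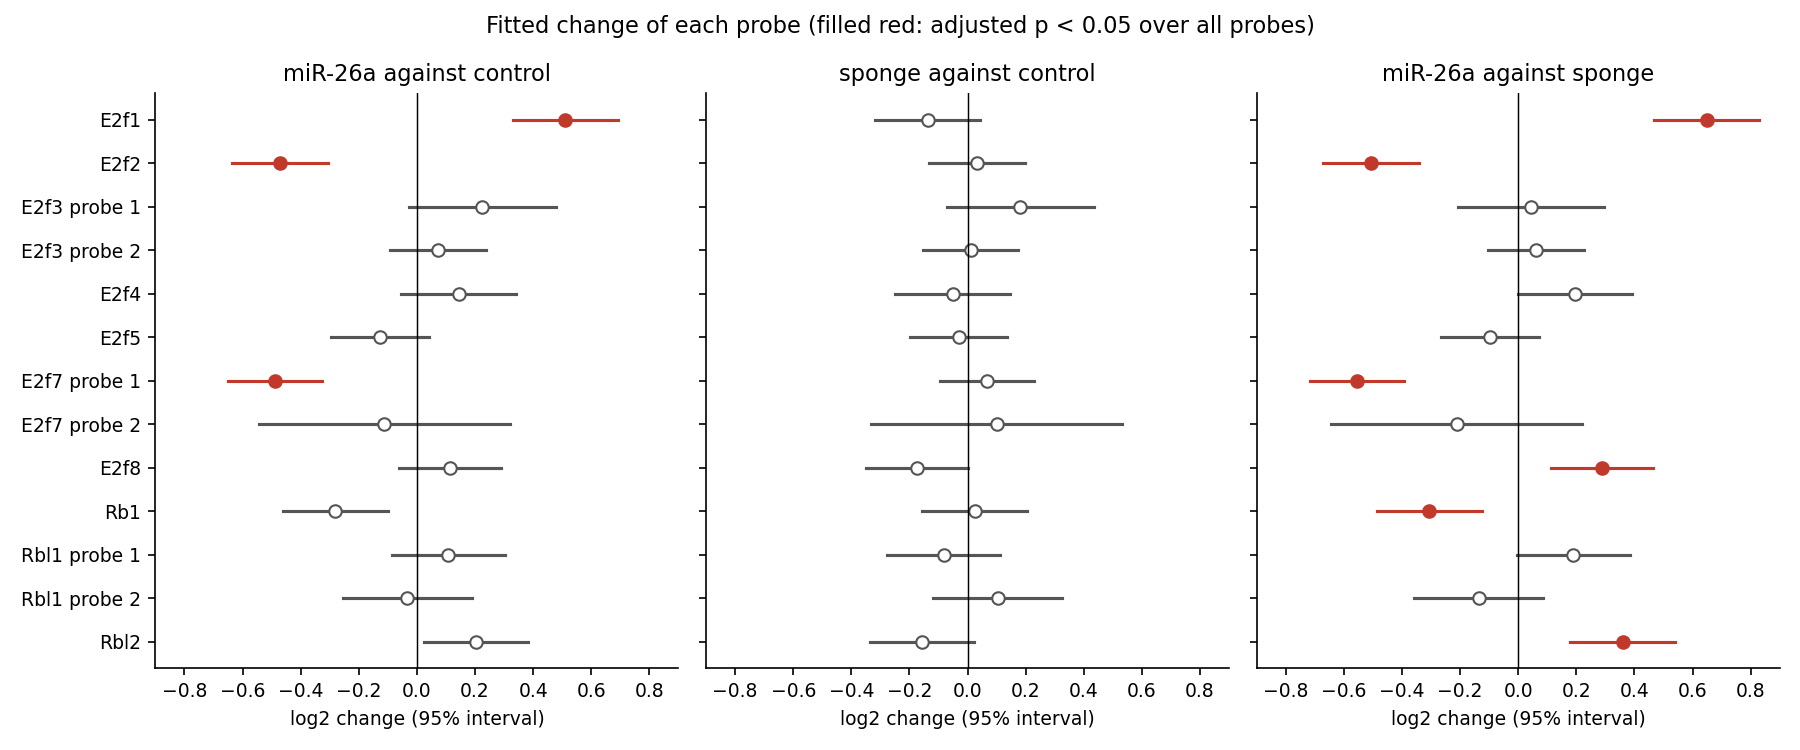
Log2 change of each probe (points) with its 95% interval from limma (lines) in the 3 comparisons, filled red where the adjusted p over all probes tested is below 0.05. There are 3 red points with miR-26a, none with the sponge and 6 between miR-26a and sponge.

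With the sponge, 0 of the 13 member probes were called in either direction by limma, and 0 passed at an unadjusted p under 0.05. An unpaired t-test, run as an alternative, called 0 after adjustment and 2 before it. Over all probes tested, 0% were called lower and 0.00992% higher, and 8.72% and 7.38% passed unadjusted as lower and higher. The median change of the members was 0.01, beside 0.00 for all probes. Leaving aside E2f7 probe 2, the 95% intervals of the members lay between -0.35 and 0.43, so that smaller changes of single members with the sponge remain compatible with these values.

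E2f1, E2f2, E2f7 probe 1 and Rb1 differed from control by similar amounts in both experiments with miR-26a. Over the members, the sign of the difference matched between the experiments for 12 of 13 probes, and with the sponge for 6 of 13. How often the signs matched over all probes tested was not counted, so these counts only describe the members. The 2 miR-26a arrays were both below the 2 control arrays for 5 probes (all probes tested: 22.9%) and both above them for 4 (26.5%). The sponge arrays were both below control for 3 probes, E2f1, E2f8 and Rbl2 (20.4%), and both above it for 1, E2f7 probe 1 (17.3%). These shares of all probes are large, since groups of 2 arrays separate easily.

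**Figure D3:**
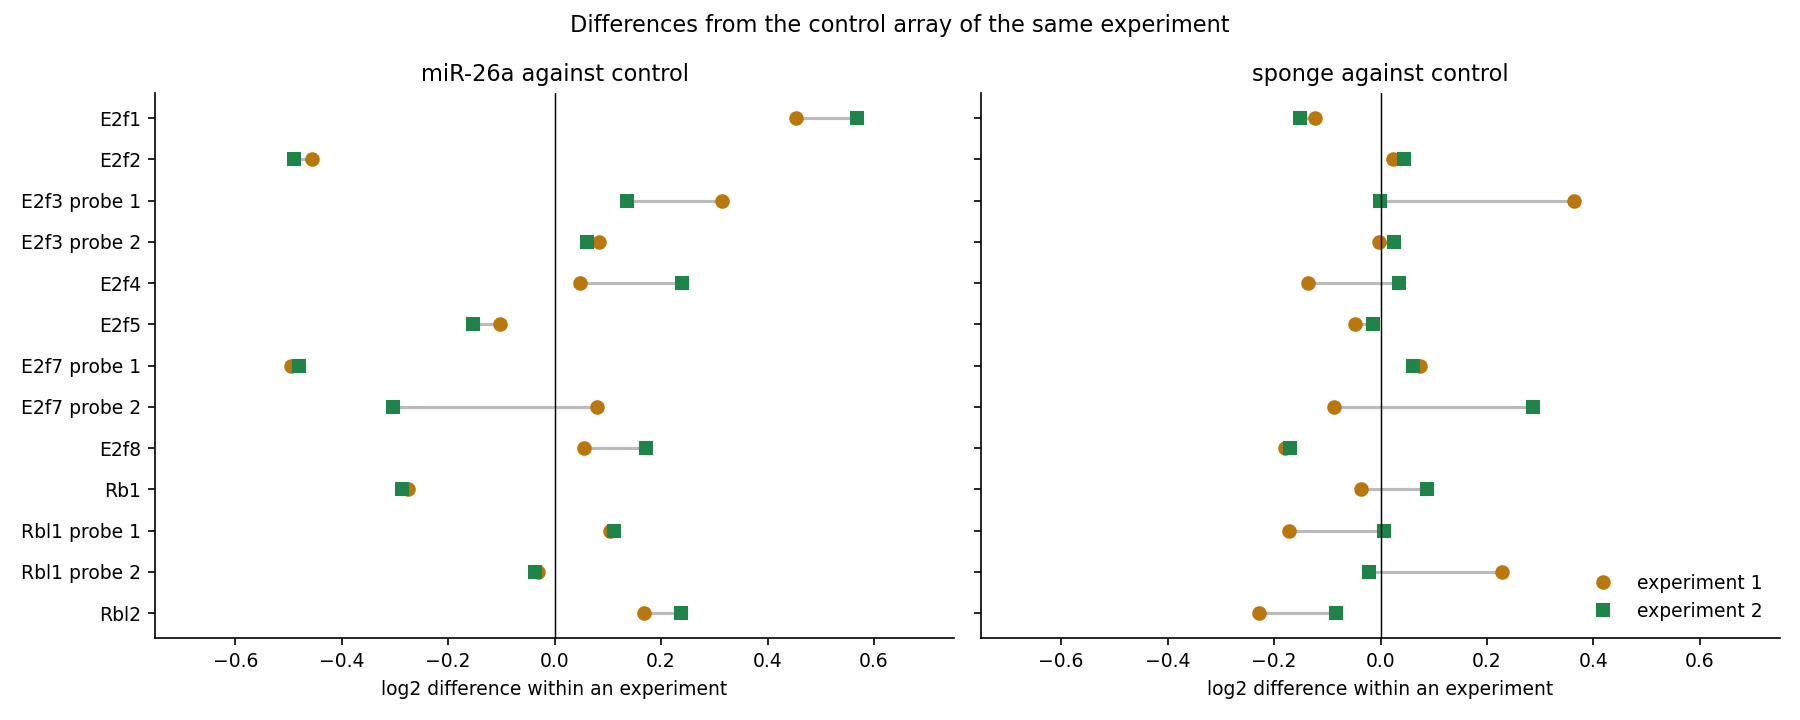
Log2 difference from the control array of the same experiment (horizontal axis) for each probe, with circles for experiment 1 and squares for experiment 2. With miR-26a the 2 values of E2f1, E2f2, E2f7 probe 1 and Rb1 lie close together and far from 0, and with the sponge 7 of 13 pairs fall on opposite sides of 0. The share of all probes tested that do so was not counted.

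Between miR-26a and sponge, 3 member probes were lower with miR-26a (E2f2, E2f7 probe 1 and Rb1) and 3 higher (E2f1, E2f8 and Rbl2). This compares with 8.49% and 8.28% of all probes tested by limma. Among the 6, E2f1, E2f2 and E2f7 probe 1 also passed with miR-26a against control, and E2f8, Rb1 and Rbl2 did not. In a bulk sample, fewer cells in a state and less RNA per cell cannot be told apart, and this holds for every member.

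The calls rest on few arrays. With either control array left out, limma called 0 members with miR-26a (3 and 5 at an unadjusted p under 0.05, adjusted p of 0.133 to 0.151 for E2f1, E2f2 and E2f7 probe 1, with changes of 0.47 to 0.53 in size), and without miR-26a replicate 2 only E2f7 probe 1 was. Without the experiment as a block, E2f1 (adjusted p = 0.0518) and E2f2 (0.143) lost their call, E2f7 probe 1 kept it, and with all 55681 probes tested 0 probes of any gene passed (4 members at an unadjusted p under 0.05). Of the calls between miR-26a and sponge, all 6 were lost when 1 or the other sponge array was left out, and those of E2f8, Rb1 and Rbl2 held under 2, 4 and 5 of the 16 alternative settings.

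Among the partners of the E2Fs, Tfdp2, a dimerization partner needed for DNA binding, fell with miR-26a and the other partners did not pass. At the brightest tested of its 2 probes, Tfdp2 read 10.37 and 10.47 in control, 10.10 and 10.06 in miR-26a and 10.39 and 10.50 in sponge arrays. Its change was -0.34 with miR-26a (SE 0.0738, limma adjusted p = 0.0488) and -0.36 between miR-26a and sponge (adjusted p = 0.0308). Tfdp1, the more widely used partner, changed by 0.13 (adjusted p = 0.280). E2f6, a repressor without an RB-binding part, read 10.65 and 10.30 in control and 11.28 and 10.31 in miR-26a arrays, so that its change of 0.32 (adjusted p = 0.242) lay in experiment 1. Of the 6 genes listed for the DREAM and MuvB complexes, 0 passed in any comparison by limma. DREAM carries p107, p130 and E2F4 to promoters, a role that does not describe Mybl2. With miR-26a, Mybl2 changed by 0.21 (limma unadjusted p = 0.0408) and was the only 1 of the 6 below 0.05 unadjusted.

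Cyclin E and its kinase, which phosphorylate the RB family late in G1, were lower with miR-26a than in control. Only the cyclin also passed between miR-26a and sponge. Ccne1, the cyclin, read 13.15 and 13.11 in control, 12.55 and 12.50 in miR-26a and 13.27 and 13.07 in sponge arrays. Its change was -0.60 with miR-26a (SE 0.0748, limma adjusted p = 0.0120) and -0.65 between miR-26a and sponge (adjusted p = 0.00760). Cdk2 read 11.33 and 11.38 in control, 10.96 and 11.00 in miR-26a and 11.02 and 11.20 in sponge arrays. Both constructs lay below control, with -0.37 for miR-26a (limma adjusted p = 0.0368) and -0.25 for the sponge (unadjusted p = 0.0169, adjusted p = 0.241). Between miR-26a and sponge Cdk2 differed by -0.13 and did not pass (adjusted p = 0.272). Of the 8 genes of this list 5 were tested, since Ccnd1, Ccnd2 and Ccne2 were above background on no array, and Ccnd3, Cdk4 and Cdk6 did not pass.

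Skp2, the substrate receptor of a ubiquitin ligase that removes the CDK inhibitor p27, had the largest change of all the listed genes. It read 11.38 and 11.32 in control, 9.80 and 9.93 in miR-26a and 11.71 and 11.58 in sponge arrays. The change with miR-26a was -1.49 (SE 0.0865, limma adjusted p = 0.00317), while the sponge value of 0.29 did not pass (adjusted p = 0.241). None of the CDK inhibitors passed with miR-26a. Cdkn1b, which encodes p27, changed by -0.29 (limma adjusted p = 0.121) and Cdkn2a by -0.28 (adjusted p = 0.116). Cdkn1a went the other way by 0.25 (adjusted p = 0.121). Cdkn2c, an inhibitor of the cyclin D kinases, was higher with miR-26a than with the sponge by 0.32 (adjusted p = 0.0404). Cdkn1c and Cdkn2b were too dim to be tested. Of 8 corepressors that bind RB, 0 passed against control by limma. At an unadjusted p under 0.05, 0 passed with miR-26a (all probes: 13% lower and 14.3% higher). With the sponge 1 was lower and 1 higher (all probes: 8.72% and 7.38%), so these counts only describe the list. Kdm5a, a histone demethylase, differed between miR-26a and sponge by -0.28 (adjusted p = 0.0451).

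Genes that E2F switches on at the start of DNA synthesis mostly had small positive values with miR-26a. Of 32 tested, 0 passed as higher and 1, Ezh2, passed as lower by limma (all probes: 4.5% and 5.14%). At an unadjusted p under 0.05, 7 were higher and 1 lower (all probes: 14.3% and 13%). Ezh2, a histone methyltransferase, read 13.98 and 14.03 in control, 13.40 and 13.62 in miR-26a and 14.01 and 14.07 in sponge arrays, a change of -0.50 with miR-26a (SE 0.0774, limma adjusted p = 0.0207). The list had 23 positive and 9 negative values with a median of 0.06, beside a median of 0.01 for all probes tested. How many of all probes had positive values was not counted, so the signs only describe the list. Between miR-26a and sponge, Mcm2, a subunit of the replicative helicase (0.38, adjusted p = 0.0236), Tyms, thymidylate synthase (0.36, adjusted p = 0.0448), and Tk1, thymidine kinase (0.31, adjusted p = 0.0416), were higher with miR-26a. Ezh2 was lower there by -0.53 on the log2 scale (adjusted p = 0.0134). Of all probes, 8.28% passed as higher and 8.49% as lower in that comparison.

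Genes of mitosis that DREAM holds silent in resting cells mostly had negative values with miR-26a. Of 18 tested, 1, Cenpe, a kinetochore motor, passed as lower (all probes: 5.14%). Its change was -0.37 (SE 0.0758, limma adjusted p = 0.0406). A further 15 values were negative and 2 positive, with a list median of -0.07, beside 0.01 for all probes tested. How many of all probes had negative values was not counted, so the signs only describe the list. At an unadjusted p under 0.05, 3 of the 18 passed as lower by limma, a share near the 13% of all probes. The sponge also gave negative values for 15 of the 18, with a median of -0.07 and 0 calls, and 0 at an unadjusted p under 0.05. Between miR-26a and sponge 0 of the 18 passed by limma, 4 were lower at an unadjusted p under 0.05 (all probes: 15.9%) and the median was -0.03. All 7 of these lists and the members are described by counts and values, with no test of a list. The alternative settings were examined for the member probes only, so whether calls of listed genes hold under them is not known.

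**Figure D4:**
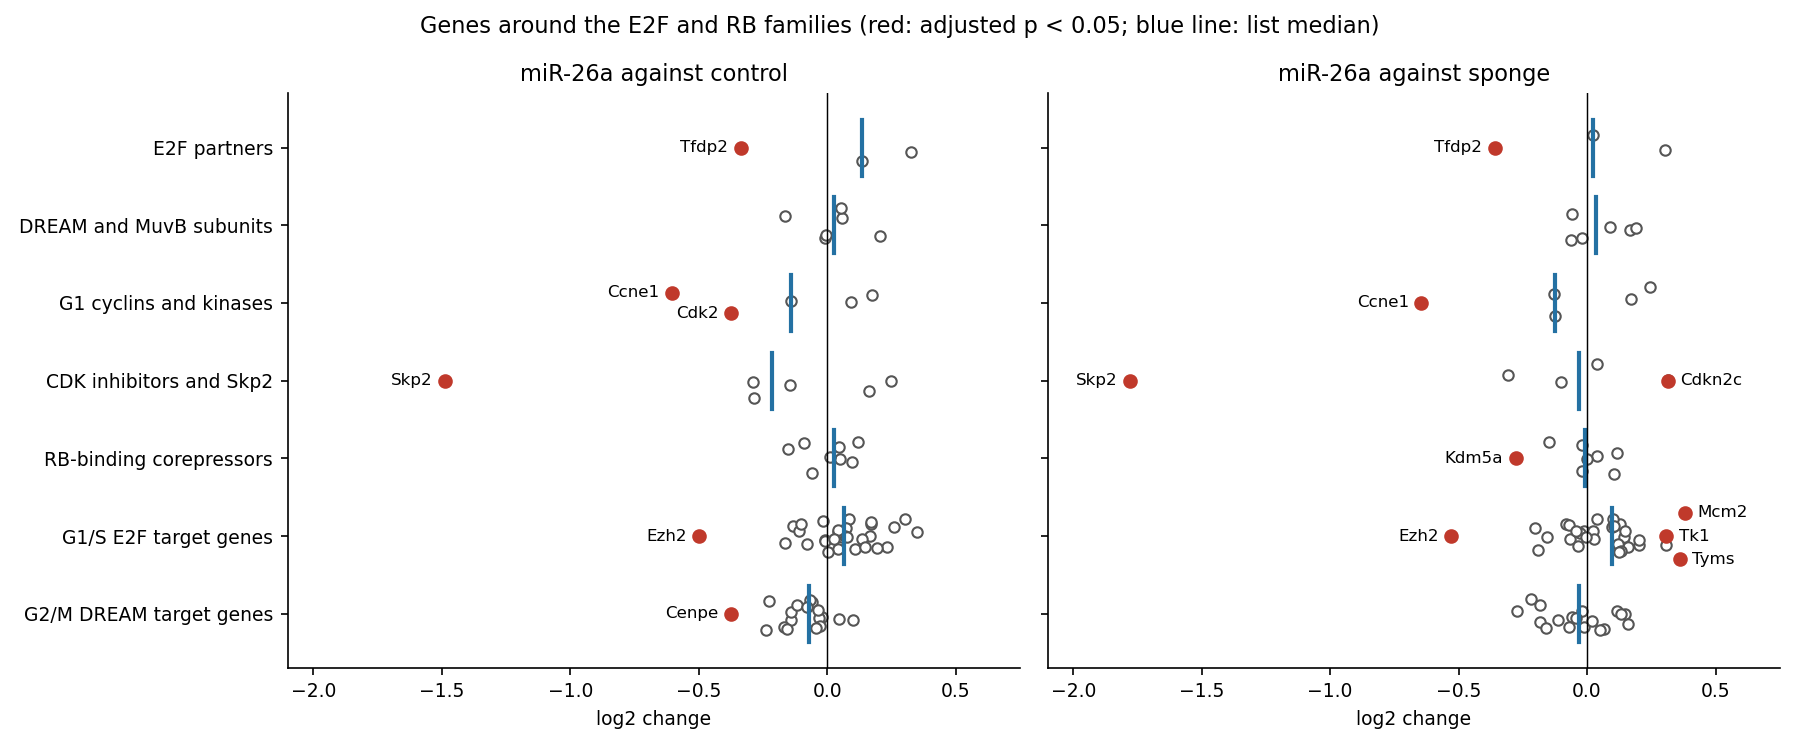
Log2 change (horizontal axis) of each tested gene, by its brightest probe, in 7 lists around the E2F and RB families, for miR-26a against control and miR-26a against sponge. Red points with names passed an adjusted p of 0.05, blue lines mark list medians, and Skp2 at -1.49 and -1.78 lies farthest from 0.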

How the data were processed

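RNA was measured on 6 Agilent mouse arrays, hybridized in 1 colour on the same slide. Per the labels, the authors extracted spot intensity with Agilent Feature Extraction (version 10.7.1.1), and they deposited each array's scanner output and a table of processed intensity, which is linear and quantile-normalized. Here the processed signals of non-control spots without an outlier flag were quantile-normalized, put on the log2 scale and averaged per probe. A probe entered the tests if 1 array or more read it well above background and 4 or more read a signal over 50. limma (3.58.1, R 4.3.3) used all 6 arrays, with the experiment, which is the replicate number of the labels, as a block, since the methods normalize to each experiment's control. Arrays with the same number deviated together (correlations of 0.379, 0.588 and 0.454). The experiments also lay in different rows of the slide, so experiment and position cannot be told apart. Titles of the control samples quote other sample records, so these arrays may also belong to an earlier series. Replicates correlated at 0.996 to 0.997. On simulated data with 200 changed probes of 20168, the model recovered 100% of those with a log2 change of 1, and 19 of its 219 calls were false. The noise followed the fitted model, and no change as small as those of the members (0.65 or less in size) was simulated. So it is not known from this how often changes of that size are found. With 2 arrays a group, their number limits the precision.

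Every member probe is named. A pathway list represents each gene by its brightest probe, and genes with an adjusted p under 0.05 are named, at most 6 by size, or otherwise at most 2 by smallest p. E2f6, Tfdp1, Cdkn1a, Cdkn1b, Cdkn2a and the genes listed as not passed or not tested were added after their values were seen. Members and lists were chosen with earlier results of these data known. Gene names and mm9 positions come from the array design, while exon or UTR positions and proteins were not analysed here. Promoters were given for 7 members and not for E2f4, E2f5 and Rb1. Tables and plots used pandas 2.3.3, numpy 2.4.6 and matplotlib 3.10.9. Alternatives were no block, 75th percentile scaling, normexp correction (offset 50), the authors' processed intensity, 3 other filters, an unpaired t-test (the methods name no test for the arrays, and a legend of the study names this one for other data), a test of the log ratios of the 2 experiments, a fit of 4 arrays and leaving out each array.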

Additional observations from a re-analysis of the deposited data

How the results depend on the processing

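None of the 9 called changes of a member probe changed sign under any of 16 alternatives, and 10 of the 30 that were not called did. With miR-26a against control 3 member probes were called. The count was 1 without the experiment as a block (no pairing of the arrays), and 0 with no filter, with an unpaired t-test (3 before adjustment) and with a test of the 2 log ratios (4 before adjustment), and it ranged from 0 to 3 when an array was left out. Between miR-26a and sponge 6 were called, with 2 without the block, 3 from the 4 arrays of that comparison, 0 with no filter, the unpaired t-test (2 before adjustment) or the log ratios (3 before adjustment), and 0 to 3 without 1 array. With the sponge against control the count was 0 in every alternative. Scaling to the 75th percentile, normexp correction, the authors' processed intensity and the 2 other filters gave 3 or 4 calls with miR-26a and 4 to 6 against sponge. Normexp brought the call of Rb1 with miR-26a (adjusted p = 0.0433). The median change of the members with miR-26a was 0.07, 0.06 with normexp, and 0.0528 to 0.0896 without 1 array, and with the sponge it was 0.01 and ranged from -0.0616 to 0.0298 without 1 array. Over all probes, the calls with miR-26a went from 1944 to 311 without the block and to 0 with no filter. Where an array was left out, the lone array of its group was assumed to vary like the other groups. Changes of E2f7 probe 2 are limited by its dim signal. Why a call was lost was not tested.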
